A study of Mus musculus with 6 samples.

Results

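The identity genes of macrophages and related myeloid cells were followed in whole mouse adrenal glands measured by bulk RNA sequencing. The set holds 37 genes named by symbol and matched by Ensembl identifier, of 54532 genes in the count table. All 37 had a row, and all 37 passed the filter on low counts together with 16300 genes in all. They were divided by textbook role into 19 general macrophage genes, 11 genes of resident macrophages of the Lyve1 type and 7 genes of monocyte-derived or lipid-laden macrophages.

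The glands came from mice labelled WT (3 samples) and VEGF/LysM (3 samples). The series asks what VEGF-A made by macrophages does for the gland. The name VEGF/LysM joins Vegfa, an endothelial growth factor gene, with LysM, the older name of Lyz2, a lysozyme gene whose promoter is widely used to drive Cre recombinase in macrophages, monocytes and neutrophils. In the usual Cre allele of this name Cre is inserted into Lyz2 itself. The labels used here give neither the allele nor the strain, age or sex, and do not say whether replicates were separate animals, so a p value here reflects the scatter of these samples alone, part of which may be technical. Libraries are called WT_1 to WT_3 and VEGF/LysM_1 to VEGF/LysM_3, with the replicate number of the labels.

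Macrophages settle in most organs before or after birth and depend on the CSF1 receptor for survival and on the transcription factor PU.1, encoded by Spi1, for their identity. Resident cells next to vessels carry endocytic receptors such as CD206 and CD163, while cells newly derived from monocytes carry CCR2, and lipid-laden cells switch on Trem2, Gpnmb and Lgals3. In the adrenal gland macrophages lie among the capillaries and steroid-producing cells. The RNA came from whole glands, so fewer cells of a type and less RNA per cell cannot be told apart.

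The deposited counts summed to between 16476879 and 18671950 per library. Levels below are in counts-per-million (CPM) scaled by TMM, a normalisation that allows for a few abundant genes in one library. All 10 adrenal markers were present, with the lowest summed level, 24200 CPM, in WT_3 and a range of 35700 to 44500 CPM over the rest. WT_3 stood apart, and VEGF/LysM_3 did so to a lesser degree. The 10 hepatocyte markers summed to 78400 CPM in WT_3 and 263 CPM in VEGF/LysM_3, where the remaining 4 libraries held 5.77 to 11.3 CPM. T and B cell markers reached a sum of 366 CPM in WT_3, against 13.9 to 30.9 CPM in the rest. The main results below are therefore also given without these libraries, and the plot of fitted changes shows both values for every gene. Neutrophil markers were scarce in every library, with a sum over 10 genes of 4.12 to 7.59 CPM. Vegfa itself read 295, 241 and 332 CPM in WT and 180, 193 and 501 CPM in VEGF/LysM, and it did not pass the test (log2 fold change 0.0095 ± 0.41, SE, edgeR adjusted p = 0.999). Without WT_3 and VEGF/LysM_3 the value for Vegfa was -0.52 (edgeR adjusted p = 1.0). In that fit its unadjusted p was under 0.05, as for 1.08% of all genes with a lower level. VEGF/LysM then lay wholly below WT for Vegfa, as for 13.8% of all genes. Many gland cells other than macrophages make Vegfa, so its level is a weak check of the labels.

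None of the macrophage genes changed detectably between VEGF/LysM and WT when all 6 libraries were used. edgeR's quasi-likelihood test called 0 of the 37 at an adjusted p of 0.05, as it did for 0 of all 16300 genes (0%). At an unadjusted p under 0.05 it found 1 of 37, Gpnmb, lower in VEGF/LysM, where 2.82% of all genes had such a p, 1.94% with a lower and 0.871% with a higher level. DESeq2 called 0 of the 37, and gave Marco no p, where it called 0.0107% of all genes. It gave Timd4 and Gpnmb an unadjusted p under 0.05, as it did 2.5% of all genes. The groups did not overlap for 1 of 37 genes, again Gpnmb, against 5.95% of all genes tested (2.41% with VEGF/LysM lower and 3.54% higher). Of the 37 log2 fold changes 17 lay above 0 and 20 below, with a median of -0.0034 beside 0.0013 over all genes tested. Scaling by library size alone moved the median over all genes to 0.069 and that of the 37 genes to 0.064. The 95% interval of a macrophage gene, before adjustment over all genes, reached at the median 0.68 log2 units to either side. It is not a limit of detection for the adjusted test, which larger changes also failed, such as Gpnmb at -1.21. Changes of that size or smaller could thus have gone uncalled.

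**Figure D1:**
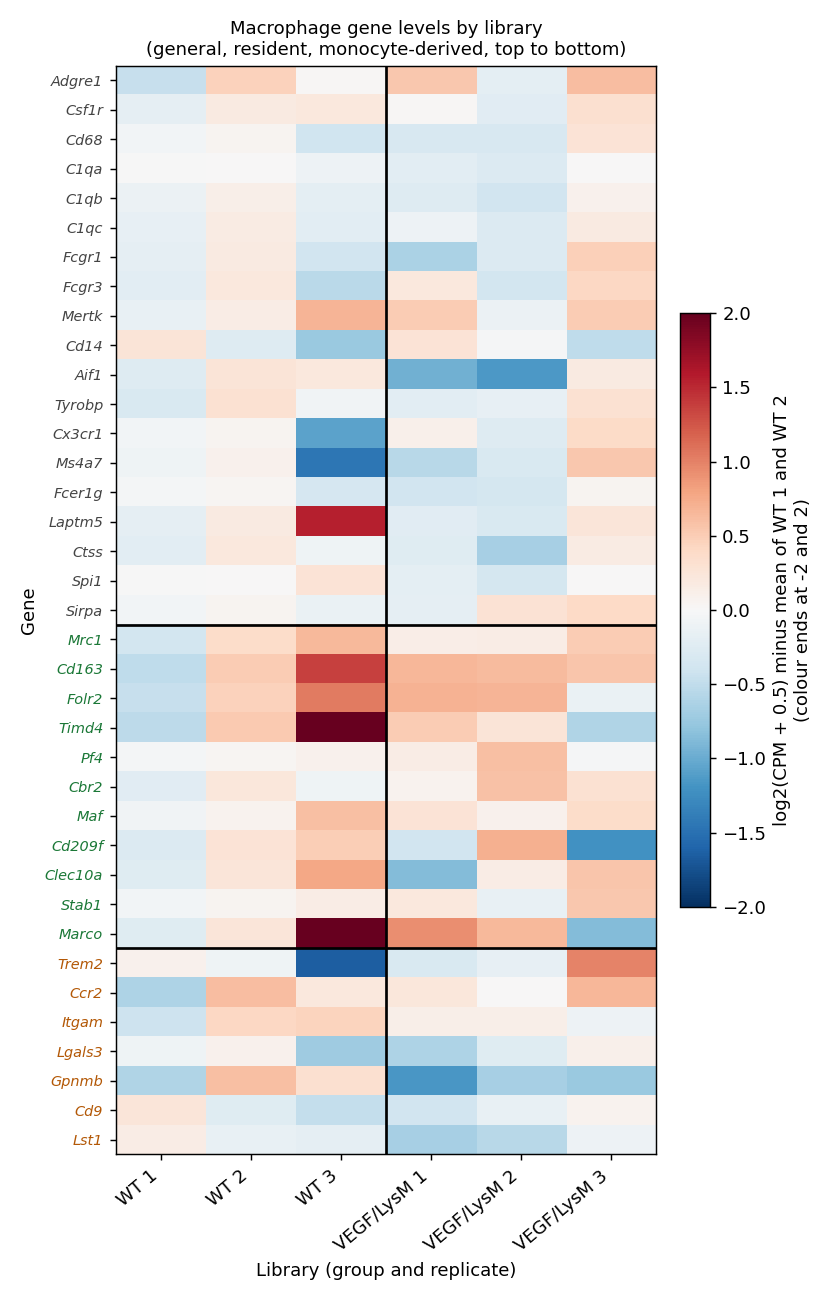
Level of each of the 37 genes (rows) in each of the 6 libraries (columns), as log2(CPM + 0.5) minus the mean of WT replicates 1 and 2, with general genes in the top block, resident genes in the middle and monocyte-derived genes at the bottom. Marco and Timd4 stand out in WT_3, at 29.8 and 13.7 CPM, and Gpnmb is the gene with all 3 VEGF/LysM values, 1.41 to 2.21 CPM, below the lowest WT value of 2.33 CPM.

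General macrophage genes went both ways, with 10 of 19 log2 fold changes above 0 and 9 below, from -0.80 (Laptm5) to 0.38 (Cx3cr1), and a median of 0.0022. Without WT_3 and VEGF/LysM_3, 15 of the 19 lay below 0 (median -0.24). Per kilobase of exon the 3 most abundant of the 37 were C1qa (103.9 CPM per kb), C1qb (89.1) and Ctss (81.3), all of them general genes. C1qa, C1qb and C1qc encode the chains of C1q, the first complement component, and lie side by side on chromosome 4 between 136880129 and 136898803 (minus strand, GRCm38). C1qa read 115, 116 and 107 CPM in WT and 99.9, 94.9 and 116 CPM in VEGF/LysM. C1qb read 96.3, 114 and 91.3 CPM in WT and 87.9, 80.3 and 112 CPM in VEGF/LysM. C1qc read 71.7, 89.4 and 69.4 CPM in WT and 74.2, 66.1 and 90.4 CPM in VEGF/LysM. For each chain the lowest library was VEGF/LysM_2, VEGF/LysM_3 was among the 2 highest, and the groups overlapped. Their log2 fold changes were -0.12 ± 0.13, -0.11 ± 0.17 and 0.0022 ± 0.17 (SE). The sign of C1qc turned to -0.0073 with DESeq2 size factors and to -0.071 without WT_3. Ctss, which encodes the lysosomal protease cathepsin S, read 103, 139 and 112 CPM in WT and 100.4, 75.1 and 133 CPM in VEGF/LysM (-0.19 ± 0.23).

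PU.1 binds DNA at a short purine-rich run known as the PU box, GAGGAA. This motif was searched in the 250 bases before each start in the RefSeq promoter table (GRCm38.p6), on both strands (TTCCTC on the other). It cannot overlap itself. Of the 37 genes 27 had an entry, and the letters were found in 15 of the 27 (55.6%), against 23.1% of 27025 genes with an entry. The match is a description and not a site. The windows of 4 genes are printed below 5′ to 3′ on the gene's strand, with the motif in capitals: C1qb and Ctss are the most abundant general genes with an entry, Gpnmb is the gene whose groups did not overlap, and Marco is the gene that differed most between WT_3 and the other libraries.
C1qb promoter, chr4:136886201-136886450, minus strand: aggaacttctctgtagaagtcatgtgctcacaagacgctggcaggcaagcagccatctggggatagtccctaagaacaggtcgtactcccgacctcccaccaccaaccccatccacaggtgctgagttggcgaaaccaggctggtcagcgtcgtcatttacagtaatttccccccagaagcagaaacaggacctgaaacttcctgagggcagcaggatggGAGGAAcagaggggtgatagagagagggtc
Ctss promoter, chr3:95526536-95526785, plus strand: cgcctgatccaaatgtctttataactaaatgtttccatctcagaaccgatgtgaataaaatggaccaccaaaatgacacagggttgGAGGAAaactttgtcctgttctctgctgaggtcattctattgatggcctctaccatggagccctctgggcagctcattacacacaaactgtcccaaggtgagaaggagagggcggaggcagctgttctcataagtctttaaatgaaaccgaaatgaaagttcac
Gpnmb promoter, chr6:49036268-49036517, plus strand: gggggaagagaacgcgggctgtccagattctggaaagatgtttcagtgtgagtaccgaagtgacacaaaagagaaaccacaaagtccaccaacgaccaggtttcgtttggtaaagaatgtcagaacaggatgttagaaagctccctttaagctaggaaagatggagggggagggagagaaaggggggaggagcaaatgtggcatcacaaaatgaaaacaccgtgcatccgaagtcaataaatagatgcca
Marco promoter, chr1:120505025-120505274, minus strand: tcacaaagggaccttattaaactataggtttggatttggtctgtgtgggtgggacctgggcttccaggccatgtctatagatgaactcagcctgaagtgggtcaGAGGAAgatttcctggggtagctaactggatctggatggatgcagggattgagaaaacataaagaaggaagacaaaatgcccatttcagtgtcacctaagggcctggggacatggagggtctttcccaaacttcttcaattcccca
C1qb, Ctss and Marco each hold 1 match on the gene's strand, and these letters are not in the Gpnmb window.

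Receptors of the general group did not pass the test either. Csf1r, the receptor for the growth factors CSF1 and IL-34, read 49.8, 63.5 and 65.4 CPM in WT and 57.1, 47.9 and 70.2 CPM in VEGF/LysM. The VEGF/LysM values thus spanned those of WT. Adgre1, which encodes the marker F4/80 (chromosome 17, 57358691 to 57483527, plus strand), read 11.2, 21.5 and 15.7 CPM in WT and 22.7, 13.5 and 24.1 CPM in VEGF/LysM. The fitted log2 fold change of Adgre1 was 0.31 ± 0.32, with a 95% interval of -0.44 to 1.07. Mertk, a receptor for the uptake of dying cells, had 0.068 ± 0.28, Fcgr1, the high-affinity IgG receptor, 0.043 ± 0.36, and Fcgr3, a low-affinity one, 0.28 ± 0.29. Fcgr3 belongs to a family of similar Fc receptor genes, so its share of reads is less certain. Cd14, a co-receptor for bacterial lipopolysaccharide, had 0.14 ± 0.34 and Sirpa, the receptor of the signal CD47, which neurons and other cells also carry, 0.23 ± 0.18. Cx3cr1, the fractalkine receptor, was lowest in WT_3 at 9.65 CPM, against 20.02 and 21.8 CPM in the other WT libraries and 17.4 to 27.4 CPM in VEGF/LysM (0.38 ± 0.34). Without WT_3 and VEGF/LysM_3 the values were 0.15 for Adgre1, 0.23 for Mertk, -0.48 for Fcgr1, -0.062 for Fcgr3, 0.12 for Cd14, 0.081 for Sirpa and -0.068 for Cx3cr1. The signs of Fcgr1, Fcgr3 and Cx3cr1 thus turned. Ms4a7, a membrane protein of macrophages, was likewise lowest there at 2.67 CPM, with 5.34 to 12.1 CPM in the other 5 libraries.

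Adaptors, enzymes and regulators of the general group were also not called. Tyrobp and Fcer1g encode signalling adaptors of activating receptors, and their log2 fold changes were -0.0034 ± 0.24 and -0.11 ± 0.20. Cd68, a lysosomal glycoprotein, had 0.022 ± 0.24, and its sign turned without WT_3 (-0.11). Spi1, the gene of PU.1, read 14.6, 14.6 and 17.8 CPM in WT and 12.7, 11.4 and 14.7 CPM in VEGF/LysM, so the highest VEGF/LysM value lay just above the lowest WT value (-0.28 ± 0.19). Laptm5, a lysosomal protein that lymphocytes also express, read 57.7, 73.7 and 192 CPM in WT, against 55.6, 52.8 and 76.9 CPM in VEGF/LysM. Its high WT mean came from WT_3, the library with the most T and B cell transcripts, whose part in the value was not tested. The log2 fold change of Laptm5 was -0.80 ± 0.45 with that library and -0.095 without it. Aif1, which encodes the actin-binding protein IBA1 (chromosome 17, 35170991 to 35176068, minus strand), read 6.88, 10.05 and 9.73 CPM in WT. In VEGF/LysM it read 4.05, 3.47 and 9.53 CPM, so replicates 1 and 2 were low and replicate 3 lay among the WT values (-0.65 ± 0.43).

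Resident macrophage genes had 5 of 11 log2 fold changes above 0 and 6 below, with a median of -0.0016, which library size alone turned to 0.11. Mrc1, the mannose receptor CD206, read 17.0, 28.6 and 35.0 CPM in WT and 24.3, 24.4 and 31.7 CPM in VEGF/LysM. Cd163, the haemoglobin scavenger receptor, read 3.47, 7.47 and 14.0 CPM in WT and 8.38, 8.20 and 7.77 CPM in VEGF/LysM. The 3 VEGF/LysM values of Cd163 were close together (SD 0.32 CPM), while WT spread from the lowest to the highest of the 6 libraries (SD 5.29 CPM). The log2 fold change of Cd163 was -0.028 ± 0.47, and its sign turned without WT_3 (0.56) and with library size alone (0.11). Maf, a transcription factor of resident macrophages and other cells, had a log2 fold change of 0.021 ± 0.21. Stab1, a scavenger receptor also found on sinusoidal endothelium, had 0.17 ± 0.19. Cbr2, a carbonyl reductase, had 0.38 ± 0.27, Pf4, a chemokine shared with platelets, 0.27 ± 0.27, and Clec10a, a galactose-binding lectin, -0.28 ± 0.48. Folr2, a folate receptor, and Cd209f, a lectin, rested on few reads, with 4 to 21 counts and 3 to 39 counts per library.

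Marco and Timd4 were the members with the lowest fitted log2 fold changes, and both values rested on WT_3. Marco, a scavenger receptor of bacteria and particles (chromosome 1, 120474538 to 120505024, minus strand), had 8, 16 and 401 counts in WT and 28, 24 and 2 in VEGF/LysM. Timd4, a phosphatidylserine receptor of long-lived resident macrophages (chromosome 11, 46810800 to 46844332, plus strand), had 8, 29 and 185 counts in WT and 25, 22 and 7 in VEGF/LysM. WT_3 was thus the highest and VEGF/LysM_3 the lowest library for both. Neither difference passed the test, at -3.34 ± 1.65 for Marco and -2.35 ± 1.19 for Timd4 (SE, edgeR adjusted p = 0.999 for each). Without WT_3 the signs turned, to 0.64 and 0.040. Without WT_3 and VEGF/LysM_3 they were 1.17 and 0.42.

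Liver macrophages, called Kupffer cells, carry Marco and Timd4 as well, and their markers were high in the same library. Clec4f, a lectin that defines Kupffer cells, had 534 counts in WT_3 and 3 in VEGF/LysM_3, and none was seen in the other 4 libraries, where a count of 0 allows up to 0.176 CPM (counting error only). Vsig4 had 121 counts in WT_3 and 0 to 23 elsewhere, and Cd5l had 496 there and 2 to 67 elsewhere. The 5 Kupffer cell markers had a sum of 107 CPM in WT_3, against 5.18 to 10.1 CPM in the rest. Their part in the values of Marco and Timd4 was not tested. VEGF/LysM_3 also held hepatocyte transcripts, but at a summed 263 CPM against 78400 CPM in WT_3. Marco and Timd4 were at their lowest of the 6 libraries in VEGF/LysM_3. Of the 4 tested Kupffer cell markers 1, Cd5l, was also lowest there, while 3 were lowest in WT_1. A link between these values was not tested.

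**Figure D2:**
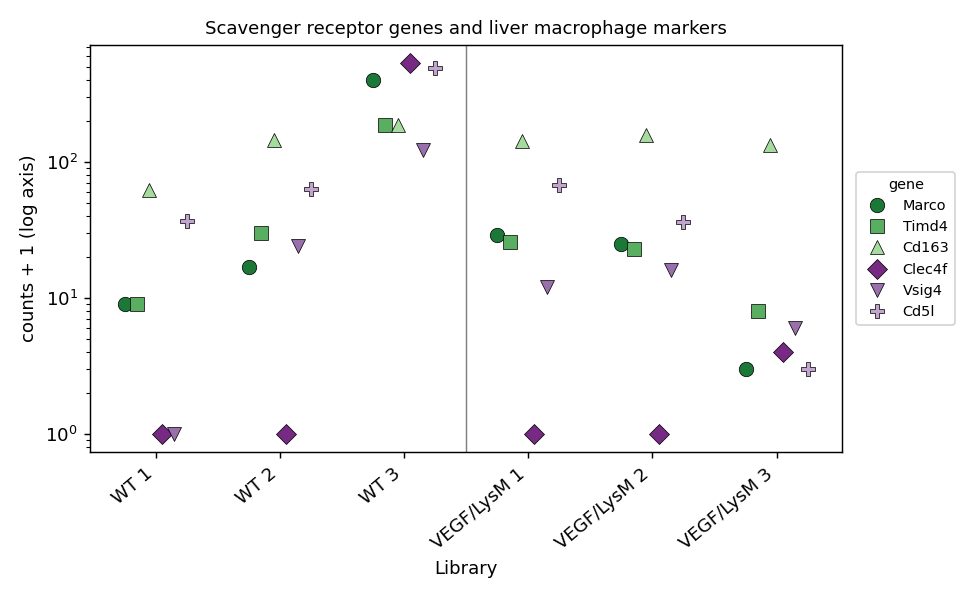
Counts plus 1 (log axis, not scaled for library size) of the resident genes Marco, Timd4 and Cd163 and of the Kupffer cell markers Clec4f, Vsig4 and Cd5l in each library. Marco (401 counts), Clec4f (534) and Cd5l (496) are far higher in WT_3 than in any other library. Cd163 is also highest there, with 188 counts (14.0 CPM). It has 61 and 145 counts in WT_1 and WT_2 (3.47 and 7.47 CPM) and 132 to 156 in VEGF/LysM (7.77 to 8.38 CPM).

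Monocyte-derived and lipid-associated genes had 2 of 7 log2 fold changes above 0 and 5 below, with a median of -0.025, which library size alone turned to 0.016. Gpnmb, a membrane glycoprotein of lipid-laden macrophages (chromosome 6, 49036546 to 49070929, plus strand), read 2.33, 5.98 and 4.83 CPM in WT. It read 1.41, 2.21 and 2.06 CPM in VEGF/LysM, below every WT value, though by little for WT_1. The log2 fold change of Gpnmb was -1.21 ± 0.42 (SE), from 4.38 ± 1.86 CPM in WT to 1.89 ± 0.43 CPM in VEGF/LysM (SD, n = 3 each), and it did not pass over all genes (edgeR adjusted p = 0.999). Leaving out single libraries gave -1.51 to -0.91, and leaving out WT_3 and VEGF/LysM_3 gave -1.19. Given the 2.41% of all tested genes with VEGF/LysM wholly below WT, 1 such gene among 37 is near the background. The gene rests on 24 to 116 counts per library.

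Trem2, a lipid receptor of macrophages, ordered the libraries differently from Gpnmb. It read 12.3, 10.8 and 3.34 CPM in WT and 9.21, 10.3 and 23.5 CPM in VEGF/LysM, so WT_3 was the lowest and VEGF/LysM_3 the highest of the 6 (0.69 ± 0.56). The sign of Trem2 turned without these libraries (-0.24). Lst1, a small myeloid membrane protein, read 3.47, 2.73 and 2.67 CPM in WT and 1.76, 1.95 and 2.83 CPM in VEGF/LysM (-0.44 ± 0.32, or -0.73 without WT_3 and VEGF/LysM_3). Lgals3, which encodes galectin-3, had -0.025 ± 0.28, and Cd9, a tetraspanin made by many cell types, -0.012 ± 0.22. Ccr2, the receptor that draws monocytes into tissue, had 0.18 ± 0.38 and Itgam, the integrin chain CD11b, -0.17 ± 0.34.

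**Figure D3:**
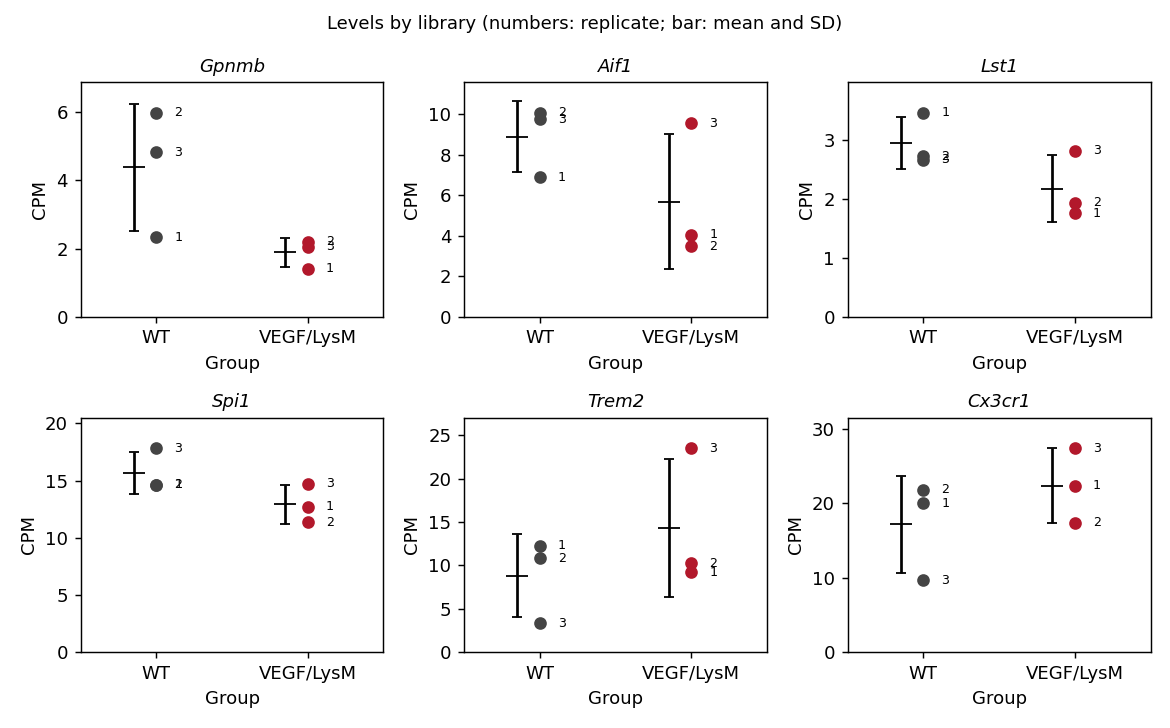
CPM of Gpnmb, Aif1, Lst1, Spi1, Trem2 and Cx3cr1 in each library, with the replicate number beside each point and the mean and SD of each group (n = 3) as a bar. Gpnmb alone shows no overlap, with VEGF/LysM at 1.41 to 2.21 CPM, while Aif1 in VEGF/LysM_3 (9.53 CPM) and Trem2 in WT_3 and VEGF/LysM_3 (3.34 and 23.5 CPM) lie apart from their groups.

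The general and resident subgroups took opposite signs once WT_3 and VEGF/LysM_3 were left out. In that comparison of 2 libraries with 2, 15 of 19 general genes lay below 0 and their median was -0.24 on the log2 scale, while 10 of 11 resident genes lay above 0 with a median of 0.36. The monocyte-derived genes had 6 of 7 below 0 and a median of -0.28. Over the 16163 genes tested both here and with all 6 libraries, 49.8% lay below 0 and the median was 0.00089. No gene passed at an adjusted p of 0.05, neither among the 37 nor among 16337 (0%). In edgeR's quasi-likelihood test 2 of 37, Aif1 (-1.17, unadjusted p = 0.00562) and Gpnmb (-1.19, unadjusted p = 0.0493), had an unadjusted p under 0.05, both lower. Over all genes 2.31% had such a p and 1.08% had it with a lower level. VEGF/LysM lay wholly below WT for 10 general, 0 resident and 4 monocyte-derived genes, where 13.8% of all genes did. It lay wholly above for 0 general, 5 resident (Cd163, Folr2, Pf4, Maf and Marco) and 0 monocyte-derived genes, against 14.4%. Genes of 1 cell type vary together between samples, so these counts are not independent observations, and no test of the list was made. The genes and subgroups were also chosen with earlier results of these data known.

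The 2 libraries bore on different sides of this pattern. Without WT_3, where edgeR called 0 of the 37 and 0.006% of all genes, 10 of 11 resident genes lay above 0 (median 0.25) and 13 of 19 general genes below 0 (median -0.081). Without VEGF/LysM_3, where it called 0% of all genes, 5 of 11 resident genes lay above 0 (median -0.013) and 14 of 19 general genes below 0 (median -0.19). The resident sign therefore went with the absence of WT_3, and the general one was largest in the fits without VEGF/LysM_3. With all 6 libraries, VEGF/LysM_3 was the highest library for 11 of the 19 general genes, and WT_3 was the highest for 7 of the 11 resident genes. WT_1 was the lowest library for 6 of the 11 resident genes, whose median was -0.39 when WT_1 alone was left out. Against the mean of WT_1 and WT_2, the median resident gene stood at -0.255 in WT_1 and 0.217 in WT_2 (log2). In VEGF/LysM_1 and VEGF/LysM_2 it stood at 0.206 and 0.543, so WT_2 was about level with VEGF/LysM_1. On the same scale the median general gene stood at -0.161 in WT_1 and 0.145 in WT_2. It stood at -0.204 in VEGF/LysM_1 and -0.287 in VEGF/LysM_2, so WT_1 was close to VEGF/LysM_1.

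**Figure D4:**
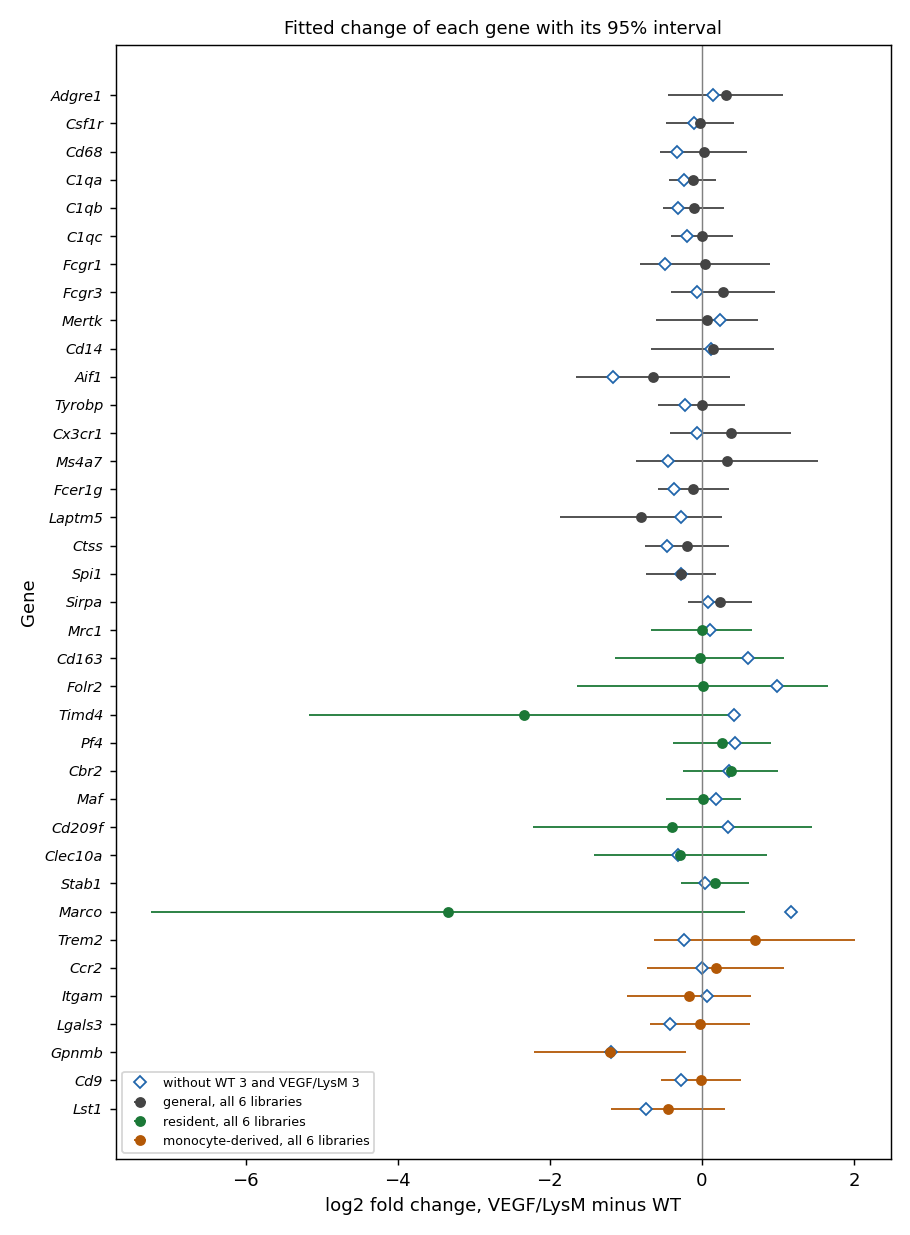
Log2 fold change of each gene, VEGF/LysM minus WT, from all 6 libraries (filled points with 95% intervals, coloured by subgroup) and without WT_3 and VEGF/LysM_3 (open diamonds). Only the interval of Gpnmb (-2.21 to -0.21) leaves out 0 before adjustment, and the diamonds of Marco (1.17) and Timd4 (0.42) lie on the other side of 0 from their points.

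Within each library the mean level of the resident genes was set against that of the general genes, on a log2(CPM + 1) scale, which takes out shifts that both subgroups share. Resident minus general was -2.30, -2.10 and -1.004 in WT and -1.89, -1.59 and -2.37 in VEGF/LysM. The highest value was that of WT_3 and the lowest that of VEGF/LysM_3, so the groups overlapped, with means of -1.80 ± 0.70 and -1.95 ± 0.39 (SD, n = 3 each). The difference of the means, VEGF/LysM minus WT, was -0.14 (-0.232 with a pseudocount of 0.1), and it became 0.26 without WT_3 and 0.47 without WT_3 and VEGF/LysM_3. Leaving Marco and Timd4 out of the resident genes, a choice made after their values were seen, gave -1.87, -1.69 and -1.15 in WT and -1.54, -1.17 and -1.82 in VEGF/LysM. WT_3 and VEGF/LysM_2 were then nearly level at the top, and the difference of the means was 0.059, or 0.43 without WT_3 and VEGF/LysM_3. Monocyte-derived minus general varied less, at -1.49, -1.42 and -1.61 in WT and -1.68, -1.38 and -1.56 in VEGF/LysM. The difference of those means was -0.034 (-0.072 with a pseudocount of 0.1), smaller than the SD of either group (0.094 and 0.15).

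**Figure D5:**
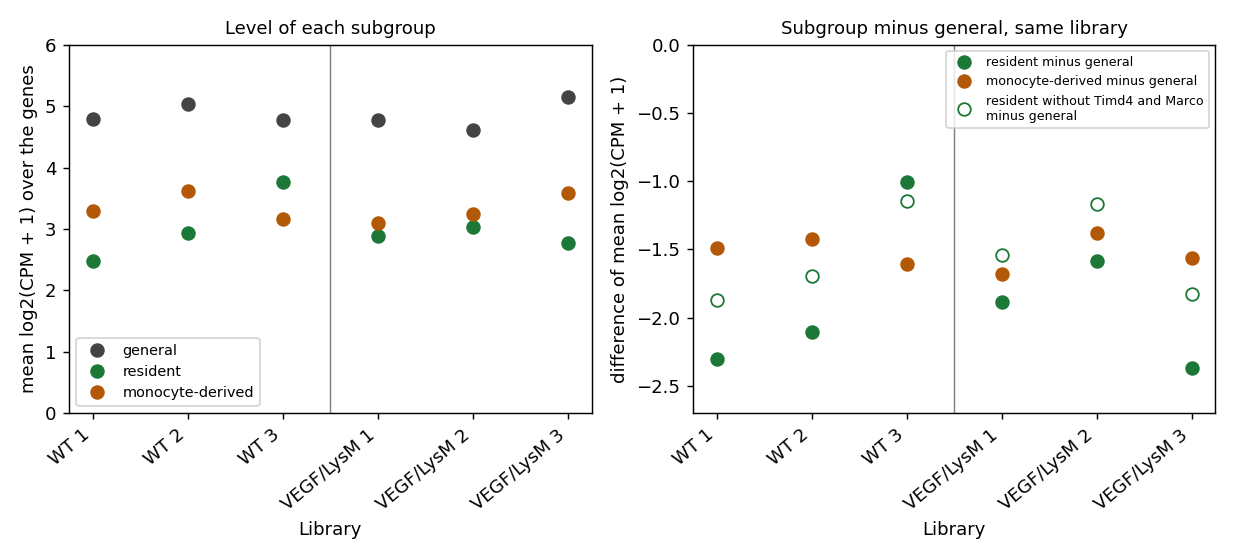
Left, mean log2(CPM + 1) of the general, resident and monocyte-derived genes in each library. Right, resident and monocyte-derived minus general in the same library, with open points for the resident genes without Marco and Timd4. The resident difference is highest in WT_3 (-1.004) and lowest in VEGF/LysM_3 (-2.37).

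Other myeloid genes that are not among the 37 gave 3 of 25 log2 fold changes above 0 and 22 below, with a median of -0.46, and 0 of 25 passed over all genes. That median became 0.077 without WT_3, which was the highest library for 17 of the 25. Many of the 25, such as Ptprc, the leukocyte antigen CD45, and Rac2, a small GTPase of blood cells, are shared with lymphocytes. Rac2 read 9.84, 17.0 and 101.1 CPM in WT, against 9.44, 8.94 and 11.6 CPM in VEGF/LysM (-2.09 ± 0.83, or -0.43 without WT_3). Lyz2 was the single gene of the 25 whose groups did not overlap, at 186, 275 and 263 CPM in WT and 132, 111 and 134 CPM in VEGF/LysM, where 2.41% of all genes had VEGF/LysM wholly lower. For Lyz2 the fitted log2 fold change was -0.94 ± 0.19 (edgeR adjusted p = 0.999) and -0.92 without WT_3 and VEGF/LysM_3. The unadjusted edgeR p with all 6 libraries was 0.00182, where 1.94% of all genes had a p under 0.05 with a lower level. DESeq2 gave Lyz2 an adjusted p of 0.0984. Its copy Lyz1 is very similar, so the Lyz2 count is uncertain. Lyve1, a hyaluronan receptor of resident macrophages and lymphatic endothelium, read 3.98, 6.75 and 20.05 CPM in WT and 4.75, 8.20 and 2.77 CPM in VEGF/LysM, with the same highest and lowest libraries as Marco and Timd4.

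Growth factors, chemokines and bridging molecules that act on macrophages gave 6 of 11 tested genes above 0 and 5 below (median 0.024), with 0 called over all genes. Csf1 read 31.7, 42.9 and 46.0 CPM in WT and 39.1, 39.8 and 43.8 CPM in VEGF/LysM, so VEGF/LysM lay within the WT range. Il34, the other ligand of the CSF1 receptor, read 56.5, 56.9 and 29.4 CPM in WT and 53.8, 60.1 and 65.1 CPM in VEGF/LysM. The value for Il34 of 0.33 ± 0.26 became 0.07 without WT_3. Tgfb1, a cytokine that maintains several resident macrophage types, read 46.5, 44.3 and 56.2 CPM in WT and 38.5, 41.3 and 44.2 CPM in VEGF/LysM (-0.24 ± 0.15). Pros1, a bridging ligand of Mertk, read 103, 117 and 108 CPM in WT and 121, 120 and 128 CPM in VEGF/LysM (0.17 ± 0.12). Tgfb1 and Pros1 had groups that did not overlap, in opposite directions, where 2.41% of all genes had VEGF/LysM wholly lower and 3.54% wholly higher. Without WT_3 and VEGF/LysM_3 their log2 fold changes were -0.18 and 0.14. With all 6 libraries neither passed over all genes (edgeR adjusted p = 0.999 for each).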

How the data were processed

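Whole adrenal glands of 3 WT and 3 VEGF/LysM samples were measured. Per the labels' protocols, RNA of high integrity was made into libraries by the Smart-seq2 approach, which does not mark strand, so reads of overlapping genes cannot be told apart. The deposited values are whole-number counts per gene, not normalised. The submitters' processing notes name kallisto, mm10 and DESeq2 1.36.0, without their roles. Columns were matched to samples by title.

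Genes were filtered with filterByExpr (minimum count 10, minimum total 15) and scaled by TMM. A quasi-likelihood model with 1 term, the group, was fitted in edgeR 4.0.16 (R 4.3.3), and Benjamini-Hochberg adjustment ran over 16300 genes. Fold changes give VEGF/LysM over WT on the log2 scale. The common biological coefficient of variation was 0.365. Scripts were tested on simulated data. With 3 libraries a group the smallest exact permutation p is 0.1. Means within subgroups were described without a test, because the members were chosen with results of these data known. Positions are from GENCODE for GRCm38, the assembly that mm10 names.

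The genes, subgroups and lists were chosen with earlier results of these data known. All 37 genes were named by rule, with Vegfa, Lyz2, Lyve1 and up to 2 genes of smallest p from each other list; Clec4f, Cd5l, Ptprc, Csf1 and Il34 were named after their values were seen. Alternatives were DESeq2 size factors, library size only, no filter, the DESeq2 1.42.0 test, a replicate block, a pseudocount of 0.1, each library left out in turn and WT_3 and VEGF/LysM_3 left out.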

Additional observations from a re-analysis of the deposited data

How the results depend on the processing

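Of the 37 genes 0 were called under any alternative, and 13 kept their direction under all of them. With the DESeq2 test 3 genes of the whole table were called, and without WT_3 edgeR called 1; none of these was among the 37. Leaving out 1 library at a time gave 0 to 1 calls over all genes. Without WT_3 and VEGF/LysM_3 the median log2 fold change was -0.235 for the general and -0.277 for the monocyte-derived genes, and resident minus general was 0.466. The same setting turned Cd68 (-0.33), C1qc (-0.19), Fcgr1 (-0.48), Fcgr3 (-0.062), Cx3cr1 (-0.068), Ms4a7 (-0.45), Trem2 (-0.24) and Ccr2 (-0.0045) below 0, and Mrc1 (0.10), Cd163 (0.60), Timd4 (0.42), Cd209f (0.34), Marco (1.17) and Itgam (0.074) above 0. Library size only moved the median over all genes tested from 0.0013 to 0.069. The same setting turned Csf1r (0.054), Tyrobp (0.063), Mrc1 (0.0999), Cd163 (0.11), Lgals3 (0.016) and Cd9 (0.038). C1qc also turned with DESeq2 size factors (-0.0073), no filter (-0.0042) and the DESeq2 test (-0.0058), as did Folr2 with the DESeq2 test (-0.0006). The cause was not tested.

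With 1 library left out at a time 20 genes took both signs: C1qc (-0.13 to 0.13), Ccr2 (-0.11 to 0.51), Cd14 (-0.0806 to 0.45), Cd163 (-0.39 to 0.56), Cd209f (-1.55 to 0.0983), Cd68 (-0.21 to 0.12), Cd9 (-0.16 to 0.22), Clec10a (-0.66 to 0.0395), Csf1r (-0.18 to 0.0787), Fcgr1 (-0.36 to 0.25), Folr2 (-0.45 to 0.65), Lgals3 (-0.23 to 0.15), Maf (-0.11 to 0.25), Marco (-3.90 to 0.64), Mertk (-0.10 to 0.32), Mrc1 (-0.24 to 0.23), Ms4a7 (-0.0976 to 0.62), Stab1 (-0.0126 to 0.31), Timd4 (-2.89 to 0.0402) and Tyrobp (-0.19 to 0.19). The subgroup medians ranged from -0.192 to 0.103 (general), -0.394 to 0.247 (resident) and -0.164 to 0.0762 (monocyte-derived), and resident minus general from -0.393 to 0.256. Depth limits Folr2, Cd209f, Marco and Timd4, which rest on few counts in most libraries.

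Deviations of same-numbered samples from their group means correlated at 0.064, -0.014 and 0.25 for replicates 1 to 3. Not every WT sample correlated best with its own number. In a group of 3 each deviation also depends on the other samples, so these values cannot decide whether the numbers pair the samples. With the replicate block 0 genes were called over all genes, and C1qc (-0.0003), Fcgr1 (-0.027), Mrc1 (0.046), Cd163 (0.17) and Cd9 (0.009) turned.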

Other observations

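Dendritic cell markers gave 3 of 7 tested log2 fold changes above 0 and 4 below (median -0.066). Their summed level was 87.8 CPM in WT_3, 73.2 CPM in VEGF/LysM_3 and within 34.7 to 51.3 CPM in the remaining 4, so the 2 libraries with hepatocyte transcripts were the highest. Ccr7, a homing receptor of migrating dendritic cells and lymphocytes, read 29.1 CPM in WT_3, against 0.398 to 1.18 CPM in the rest. Clec9a, a receptor of cross-presenting dendritic cells named after its values were seen, read 9.73 CPM in WT_3, 14.1 CPM in VEGF/LysM_3 and 2.58 to 5.21 CPM in the others. Circulating monocyte markers had 4 of 8 above 0 and 4 below (median -0.048), and 0 of 8 passed over all genes. Their summed level was 995, 416 and 983 CPM in WT and 188, 353 and 1680 CPM in VEGF/LysM. The sum did not follow the typical marker, as WT_1 was the highest library for 0 of the 8 and the lowest for 3. Against the mean of WT_1 and WT_2, the median marker stood at -0.237, 0.203 and 0.42 in WT (log2). In VEGF/LysM it stood at -0.096, 0.072 and 0.282. WT_3 was the highest library for 3 of the 8, VEGF/LysM_2 for 3 and VEGF/LysM_3 for 2. One of those highest in WT_3 was Ly6c2, a surface antigen of classical monocytes, at 29.2 CPM there against 0.967 to 2.001 CPM in the rest.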
